A study of Mus musculus with 12 samples.

Results

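Matricellular proteins are secreted into the extracellular matrix, where they act on cell adhesion, growth factor signalling and collagen assembly rather than as load-bearing fibers. Many are scarce in the uninjured adult heart and appear where fibroblasts are activated, as after infarction. The 8 genes described here were listed by name for their place in this class, with no threshold on their values. They are the tenascins Tnc and Tnxb, the SPARC family genes Sparc, Sparcl1 and Smoc2, the osteopontin gene Spp1, the fasciclin domain gene Tgfbi and the extracellular matrix protein gene Ecm1, out of 35523 genes with deposited values. All 8 entered the test, which covered 18028 genes.

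RNA was measured in wild-type cardiac fibroblasts isolated from adult C57BL/6J mice of both sexes and grown in culture. Cells received siRNA against histone H1.0, a linker histone encoded by H1f0, or a scramble siRNA, and then TGF-β at 10 ng/ml or vehicle after 24 h in medium with 0.1% FBS. The 4 groups were H1.0 siRNA with TGF-β, H1.0 siRNA with vehicle, scramble with TGF-β and scramble with vehicle, each with 3 libraries that the labels call biological replicates. These are bulk cultures of wild-type cells in which the siRNA lowers H1f0 but leaves the gene intact.

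Library totals ranged from 19864545 to 36296333 estimated counts, and the 3 libraries of H1.0 siRNA cells with TGF-β were the 3 largest. H1f0 had 842.6, 876.3 and 510.3 normalized counts in H1.0 siRNA cells with TGF-β, against 2832, 2922 and 2807 in scramble cells with TGF-β. With vehicle it had 980.1, 1075 and 600.5 in H1.0 siRNA cells, against 2515, 3033 and 2648 in scramble cells, so every siRNA library lay below every scramble library. A normalized count is an estimated read count scaled for sequencing depth and composition to the mean library total. Fibroblast marker genes (10 genes, none at 0 in any library) summed to between 30880 and 43350 CPM, most of it Col1a1, Col1a2 and Col3a1. The 15 macrophage markers summed to between 516.9 and 1162 CPM. In bulk samples, fewer cells of a type and less RNA per cell cannot be told apart.

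A gene was called at an adjusted p under 0.01 in edgeR's quasi-likelihood test, adjusted over all genes tested. Libraries with the same replicate number deviated together across groups, least clearly for replicate 1. A second fit therefore held the number as a block, and its values stand beside each call of the 8 genes that it changes, with counts for the gene lists. All standard errors and intervals below are of the log2 fold change.

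Tnc encodes tenascin-C, a glycoprotein that loosens fibroblast attachment and is laid down around healing infarcts. The gene lies on the minus strand of chromosome 4 of GRCm38, from 63959785 to 64047015. It has 2 long protein-coding transcripts that hold most of its reads here, and they differ in 2 places. Tnc-204 starts at the far 5′ end of the gene with a noncoding exon of 267 bases that Tnc-203 lacks, and its next exon, of 582 bases, is the one with which Tnc-203 begins. Tnc-203 also holds an additional coding exon of 273 bases, its exon 14 of 26, which adds 91 codons and lies in the run of fibronectin type III repeats in which tenascin-C is known to be alternatively spliced. The exon is shown because the Tnc-203 share below rests partly on it, at chr4:63984460-63984732 on the minus strand, with the exon in capitals and 12 bases of the neighboring exons in lower case on each side.
Tnc-203 exon 14: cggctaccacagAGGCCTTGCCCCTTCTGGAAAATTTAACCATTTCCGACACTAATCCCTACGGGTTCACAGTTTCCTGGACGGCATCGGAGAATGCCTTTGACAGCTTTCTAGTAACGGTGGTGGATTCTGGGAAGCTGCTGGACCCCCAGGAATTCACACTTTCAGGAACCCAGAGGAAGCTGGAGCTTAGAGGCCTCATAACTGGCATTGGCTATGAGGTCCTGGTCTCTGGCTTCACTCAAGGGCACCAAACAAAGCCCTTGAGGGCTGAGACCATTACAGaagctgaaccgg
Tnc-203 has 5 other exons of the same length, and they match this one at 48.4% to 50.2% of positions without gaps. Of the 303 windows of 31 bases that touch the exon in Tnc-203, 298 occur in no other annotated Tnc transcript.

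TGF-β raised Tnc more than any other of the 8 genes in both siRNA backgrounds, and H1.0 siRNA lowered it at baseline. Normalized counts of Tnc were 25541, 25688 and 41205 in H1.0 siRNA cells with TGF-β, against 2758, 3601 and 2377 in H1.0 siRNA cells with vehicle. In scramble cells its counts were 42113, 54632 and 65174 with TGF-β, against 8361, 12055 and 8023 with vehicle. No TGF-β library overlapped a vehicle library, and the lowest values of all 12 were the 3 of H1.0 siRNA cells with vehicle. Tnc is one of the matrix genes that the study picked from these same libraries to show, so its direction is not independent evidence.

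In H1.0 siRNA cells Tnc rose 10.6-fold with TGF-β (log2 fold change 3.40, SE 0.27, adjusted p = 1.4e-05), and in scramble cells it rose 5.69-fold (log2 fold change 2.51, SE 0.26, adjusted p = 8.4e-05, both by edgeR's quasi-likelihood test). The difference between these responses was 0.90 on the log2 scale (95% interval 0.14 to 1.65). Its unadjusted p was 0.024 in the same fit, and it did not pass adjustment over all genes (adjusted p = 0.33, and 0.13 with the replicate block). With vehicle, Tnc fell by 1.70 on the log2 scale in H1.0 siRNA cells relative to scramble cells (SE 0.25, adjusted p = 3.0e-04 by edgeR), which is a level 0.307 times that of scramble cells. With TGF-β the difference was -0.81 (SE 0.24), a level 0.571 times that of scramble cells, lower in each of the 3 same-numbered pairs. This difference was not called without pairing (edgeR adjusted p = 0.022), and was called with the replicate block (adjusted p = 0.0088) and in DESeq2 (0.0028). With single libraries left out it lay between -1.08 (adjusted p = 0.0053, without replicate 3 of H1.0 siRNA cells with TGF-β) and -0.65 (without replicate 3 of scramble cells with TGF-β), with adjusted p up to 0.084, and leaving out any other library than the first of these gave no call.

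The division of Tnc reads between its transcripts moved with both treatments. Tnc-203 held 20.7%, 15.8% and 12.7% of Tnc estimated counts in H1.0 siRNA cells with TGF-β, against 32.3%, 25.8% and 37.2% in H1.0 siRNA cells with vehicle. In scramble cells it held 7.73%, 7.25% and 6.76% with TGF-β, against 17.8%, 15.8% and 13.9% with vehicle. The share was lower with TGF-β in both backgrounds and higher with H1.0 siRNA under both treatments, with no overlap between groups in any of these 4 comparisons.

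Averaged over both siRNAs, the Tnc-203 share differed by -12 percentage points between TGF-β and vehicle. Averaged over both treatments, it was 12.5 percentage points higher with H1.0 siRNA than with scramble. Each of these had p = 0.005 in a two-sided exact permutation test within the other factor, which is the smallest value 400 permutations allow, and p = 0.0075 after adjustment over 6 tests. Single comparisons of 3 against 3 libraries cannot go below an exact p of 0.10, and all 4 for Tnc-203 were at that value. Tnc-204 moved the opposite way by 9.58 percentage points with TGF-β and -11.7 with H1.0 siRNA, as shares of 1 total must nearly do. Tnc-201, which has neither distinguishing feature, held 0% in all 6 vehicle libraries and at most 6.1% with TGF-β, and Tnc-202, a short form, averaged under 1%.

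As levels, both long transcripts rose with TGF-β. Tnc-203 averaged 4862 ± 685 normalized counts in H1.0 siRNA cells with TGF-β and 901 ± 24 in H1.0 siRNA cells with vehicle (SD, n = 3 each). In scramble cells it averaged 3873 ± 579 with TGF-β and 1505 ± 395 with vehicle (SD, n = 3 each). Between the siRNAs the 2 transcripts parted under TGF-β. Tnc-203 libraries overlapped there (4071 to 5283 in H1.0 siRNA cells, 3255 to 4403 in scramble cells), whereas those of Tnc-204 lay from 19672 to 35131 in H1.0 siRNA cells and from 38740 to 58824 in scramble cells, without overlap. The transcript levels were not tested. The files hold reads already assigned to transcripts, so the upstream start and exon 14 cannot be told apart as the source of the shift, nor can transcripts that combine them in a way the annotation lacks.

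**Figure D1:**
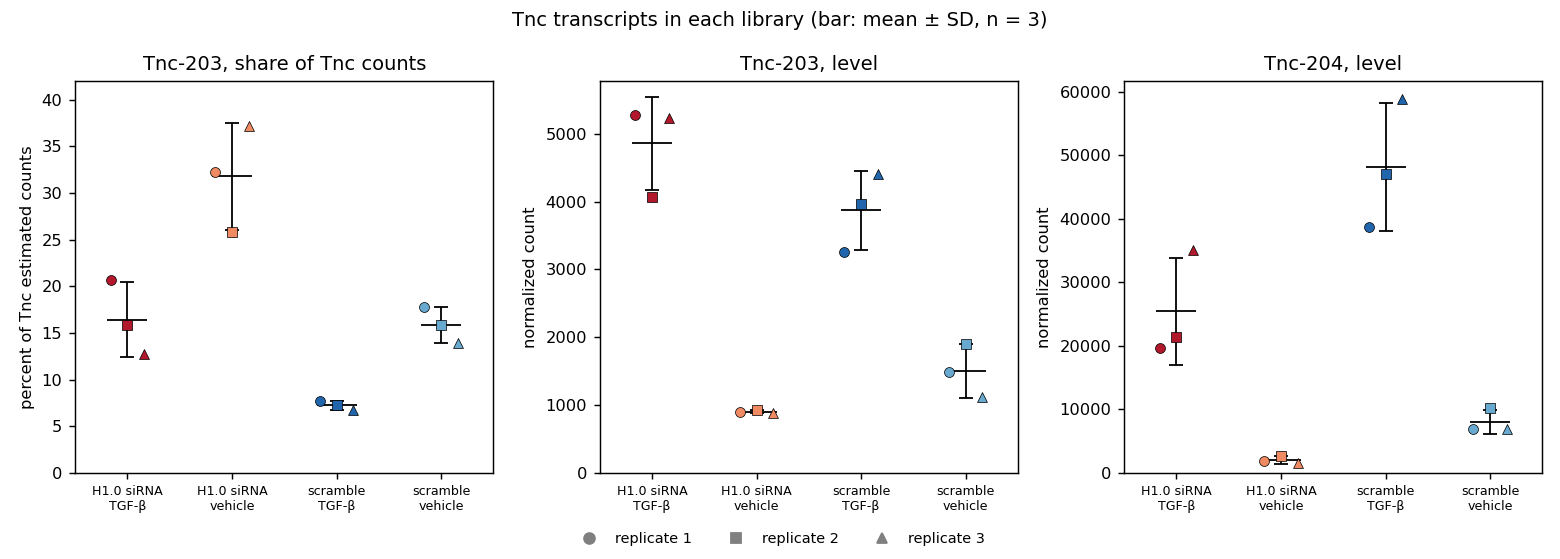
Tnc-203 as percent of all Tnc estimated counts (left), and the normalized counts of Tnc-203 (middle) and Tnc-204 (right), with 1 point per library, the replicate number as its shape, and bars for the mean ± SD of 3 libraries. The share averages 16.4% in H1.0 siRNA cells with TGF-β, 31.8% in H1.0 siRNA cells with vehicle, 7.25% in scramble cells with TGF-β and 15.9% in scramble cells with vehicle.

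Tnxb encodes tenascin-X, which binds fibrillar collagen in connective tissue. The gene lies on the plus strand of chromosome 17 from 34670535 to 34719815, and its RNA was close to absent. It had 0, 17.7 and 0 normalized counts in H1.0 siRNA cells with TGF-β, against 4.50, 77.0 and 0 in H1.0 siRNA cells with vehicle. In scramble cells it had 0, 19.3 and 0 with TGF-β, against 119.8, 127.8 and 0 with vehicle. Replicate 3 was at 0 in every group, and no comparison was called (lowest adjusted p 0.17 by edgeR, and 0.016 with the replicate block). An observed count of 0 still allows an expected count of up to about 3, so no fold change is given.

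Tgfbi encodes a secreted protein with fasciclin domains that was first described as induced by TGF-β and that binds collagen and integrins. The gene lies on the plus strand of chromosome 13 from 56609523 to 56639562. It rose with TGF-β in both siRNA backgrounds. Its normalized counts were 2209, 1391 and 1936 in H1.0 siRNA cells with TGF-β, against 612.6, 499.6 and 712.9 in H1.0 siRNA cells with vehicle. Scramble cells had 2487, 2092 and 2346 with TGF-β, against 760.2, 867.4 and 1130.0 with vehicle. The TGF-β and vehicle libraries did not overlap in either background. It rose 3.03-fold in H1.0 siRNA cells (log2 fold change 1.60, SE 0.19, adjusted p = 1.9e-04) and 2.51-fold in scramble cells (log2 fold change 1.33, SE 0.19, adjusted p = 5.1e-04, both by edgeR). The difference between these responses was 0.27 (95% interval -0.32 to 0.85, adjusted p = 0.77).

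H1.0 siRNA had a smaller effect on Tgfbi. With vehicle its level was 0.664 times that of scramble cells (log2 fold change -0.59, SE 0.19), lower in each of 3 pairs, with an adjusted p of 0.031 by edgeR that passed the threshold with the replicate block (0.0048) and in DESeq2 (0.0072). With TGF-β the difference was -0.32 (95% interval -0.73 to 0.09, adjusted p = 0.21 by edgeR, and 0.0575 with the block).

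The starts of Tnc and Tgfbi are shown because these were the 2 members that rose together with TGF-β. Each window runs from 250 bases before to 50 after the annotated start in RefSeq on GRCm38.p6, which held entries for 6 of the 8 members by symbol and none for Sparcl1 and Smoc2. Capitals mark matches, on either strand, to the Smad box (CAGAC), the TATA box (TATAAA), the AP-1 site (TGACTCA), the TEAD site (GGAATG) or the CArG box. The table holds 2 windows for Tnc, and the one shown is chr4:64046966-64047265 on the minus strand while the Tgfbi window is chr13:56609336-56609635 on the plus strand.
Tnc: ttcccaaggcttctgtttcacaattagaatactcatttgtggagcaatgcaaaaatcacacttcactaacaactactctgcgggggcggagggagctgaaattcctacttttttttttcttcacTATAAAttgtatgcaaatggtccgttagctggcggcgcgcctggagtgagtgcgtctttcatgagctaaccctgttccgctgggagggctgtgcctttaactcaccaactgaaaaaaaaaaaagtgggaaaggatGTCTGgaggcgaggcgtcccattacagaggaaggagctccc
Tgfbi: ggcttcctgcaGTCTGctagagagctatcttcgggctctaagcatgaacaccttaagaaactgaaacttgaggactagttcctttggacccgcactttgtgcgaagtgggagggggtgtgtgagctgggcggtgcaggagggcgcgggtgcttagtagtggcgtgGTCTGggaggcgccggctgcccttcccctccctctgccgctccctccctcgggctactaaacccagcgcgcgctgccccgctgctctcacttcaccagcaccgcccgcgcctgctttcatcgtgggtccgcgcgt
The Tnc window shown, whose start is that of Tnc-204, held 1 Smad box match and 1 TATA box match. The other Tnc window overlaps it and held 2 Smad box matches and 1 TATA box match, and the Tgfbi window held 2 Smad box matches. Among all 32851 windows of this length, 49.6% held a Smad box, 13.6% a TATA box, 14.7% a TEAD site, 5.2% an AP-1 site and 1.63% a CArG box. The windows of all 6 matched members held a Smad box, including those of Sparc and Spp1, which TGF-β did not change detectably, and Ecm1, which fell in scramble cells. Such matches are a description of the letters only.

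Smoc2 encodes a secreted calcium-binding protein of the SPARC family and lies on the plus strand of chromosome 17 from 14279506 to 14404790. H1.0 siRNA lowered it under both treatments, TGF-β lowered it in scramble cells, and its lowest mean level was that of cells given both. Normalized counts were 297.2, 366.4 and 153.0 in H1.0 siRNA cells with TGF-β, against 608.1, 720.9 and 364.6 in H1.0 siRNA cells with vehicle. Scramble cells had 1218, 1179 and 835.3 with TGF-β, against 3606, 3269 and 2282 with vehicle. Every H1.0 siRNA library, whatever its treatment, lay below every scramble library. In every group replicate 3 was the lowest library, at 0.462 to 0.697 times the mean of replicates 1 and 2.

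With vehicle, Smoc2 fell by 2.44 on the log2 scale in H1.0 siRNA cells (SE 0.33, adjusted p = 1.7e-04), a level 0.184 times that of scramble cells and the widest siRNA difference among the 7 members with reads in every library. With TGF-β it fell by 1.98 (SE 0.33, adjusted p = 6.9e-04 by edgeR), a level 0.253 times that of scramble cells. With TGF-β in scramble cells its level was 0.353 times that with vehicle (95% interval of the log2 fold change -2.20 to -0.81, SE 0.32, adjusted p = 0.0043). In H1.0 siRNA cells the TGF-β difference was -1.05 (SE 0.33), lower in each of 3 pairs. It was called with the replicate block (adjusted p = 7.7e-05) and in DESeq2 (0.0037) but not without the block in edgeR (adjusted p = 0.033). An offset for transcript length in edgeR gave -0.75 (adjusted p = 0.086), and -0.73 with the block as well (9.0e-04). Smoc2-205, annotated as a processed transcript, held 0% to 11.8% of Smoc2 counts there (mean 6.48%) and averaged at most 0.7% in any other group. The call in scramble cells was lost without replicate 1 or 2 of scramble cells with vehicle (edgeR adjusted p = 0.019 and 0.016) and without replicate 1, 2 or 3 of scramble cells with TGF-β (0.012, 0.014 and 0.022), while the log2 fold change stayed between -1.67 and -1.35 whichever library was left out. The responses to TGF-β differed by 0.46 between backgrounds (95% interval -0.53 to 1.44, adjusted p = 0.76). The 6 markers of mural cells, the pericytes and smooth muscle of vessels, summed to 40.9 to 85.6 CPM in H1.0 siRNA libraries, against 94.4 to 214.4 CPM in scramble libraries, with 0 of the 6 called by edgeR under either treatment. Their unadjusted p was under 0.05 for 2 of the 6 under TGF-β and 5 under vehicle, as for 7898 and 8012 of all 18028 genes. With the replicate block 4 and 5 were called lower, where 16% and 16.2% of all genes were. The part of mural cells in the Smoc2 values was not tested.

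Sparc encodes osteonectin, a collagen-binding protein needed for collagen fiber assembly, and it was by far the most abundant of the 8. Sparc lies on the minus strand of chromosome 11 from 55394500 to 55423183. It was higher with H1.0 siRNA under TGF-β, and under vehicle by a similar size that was called only in some fits, and it did not respond detectably to TGF-β. Normalized counts were 289195, 290661 and 271103 in H1.0 siRNA cells with TGF-β, against 226482, 205652 and 208987 in scramble cells with TGF-β. With vehicle they were 289489.6, 279062 and 275037 in H1.0 siRNA cells, against 229829, 233451 and 204773 in scramble cells. The 6 siRNA libraries all lay above the 6 scramble libraries.

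With TGF-β, Sparc was 1.33-fold higher in H1.0 siRNA cells (log2 fold change 0.41, SE 0.090, adjusted p = 0.0042 by edgeR). This call was lost without replicate 2 or 3 of scramble cells with TGF-β (adjusted p = 0.022 and 0.018) or without replicate 1 or 2 of H1.0 siRNA cells with TGF-β (0.019 and 0.016) and in a fit of only the libraries compared (0.010), with log2 fold changes of 0.37 to 0.45 over all alternatives. With vehicle the difference was 0.34 (SE 0.090, 1.26-fold). Its adjusted p was 0.012 by edgeR, 0.0016 with the replicate block and 2.4e-06 in DESeq2. The TGF-β difference was 0.01 in H1.0 siRNA cells (95% interval -0.19 to 0.21) and -0.06 in scramble cells (95% interval -0.26 to 0.14).

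Sparcl1 encodes hevin, a SPARC relative of blood vessels and connective tissue. Sparcl1 lies on the minus strand of chromosome 5 from 104079111 to 104113733. Its values were low and followed the replicate number as well as the treatment. Normalized counts were 287.1, 496.8 and 166.2 in H1.0 siRNA cells with TGF-β, against 483.3, 805.0 and 359.4 in H1.0 siRNA cells with vehicle. In scramble cells they were 504.5, 427.5 and 220.2 with TGF-β, against 1120 (replicate 1), 1278 (replicate 2) and 555.2 (replicate 3) with vehicle. Replicate 3 was the lowest library of every group, at 0.425 to 0.558 times the mean of the other 2. Within the numbers, it was lower with TGF-β in all 6 pairs.

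Replicate 3 was also the lowest of each group in the 6 mural cell markers, at 40.9 CPM in H1.0 siRNA cells with TGF-β, 44.0 CPM with vehicle, 95.4 CPM in scramble cells with TGF-β and 94.4 CPM with vehicle. The replicates 1 and 2 lay between 64.7 and 214.4 CPM, and the part of such cells in the Sparcl1 values was not tested.

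Without pairing, no Sparcl1 comparison was called in edgeR. The TGF-β difference was -0.79 in H1.0 siRNA cells (SE 0.46, adjusted p = 0.23 by edgeR) and -1.36 in scramble cells (SE 0.46, adjusted p = 0.042, and 0.0073 in DESeq2). With the replicate block both were called, at -0.84 (SE 0.17, adjusted p = 0.0024) and -1.34 (SE 0.17, adjusted p = 1.2e-04). H1.0 siRNA lowered it with vehicle in that fit (-0.83, adjusted p = 0.0018, against 0.17 without the block), and with TGF-β the difference was -0.33 (adjusted p = 0.15).

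Ecm1 encodes a secreted glycoprotein that binds perlecan and other matrix proteins, and the gene lies on the minus strand of chromosome 3 from 95734147 to 95739569. It fell with TGF-β in scramble cells. Normalized counts were 8736, 8258 and 7746 in H1.0 siRNA cells with TGF-β, against 10636, 10124 and 10477 in H1.0 siRNA cells with vehicle. Scramble cells had 8089, 6442 and 5842 with TGF-β, against 12262, 10228 and 8787 with vehicle. Neither background showed overlap between TGF-β and vehicle libraries. In scramble cells the decrease was 0.62 on the log2 scale, a level 0.651 times that with vehicle (log2 fold change -0.62, SE 0.13, adjusted p = 0.0047 by edgeR). That call was lost without replicate 1 or 2 of scramble cells with vehicle (adjusted p = 0.017 and 0.015) and without replicate 2 or 3 of scramble cells with TGF-β (0.021 and 0.022), and in a fit of only the libraries compared (0.023).

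In H1.0 siRNA cells the TGF-β difference of Ecm1 was -0.34 (SE 0.13), with an adjusted p of 0.079 by edgeR and 0.0078 with the replicate block. The responses differed by 0.28 (95% interval -0.13 to 0.69, adjusted p = 0.60). H1.0 siRNA gave differences of 0.28 with TGF-β (95% interval -0.01 to 0.57) and 0.00 with vehicle (log2 fold change -0.002, 95% interval -0.29 to 0.29), neither of them called. An Ecm1 transcript with a retained intron held from 5.08% to 12.2% of Ecm1 counts over the 12 libraries.

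Spp1 encodes osteopontin, a ligand of integrins and CD44 that macrophages and activated fibroblasts secrete in the injured heart. The gene lies on the plus strand of chromosome 5 from 104435118 to 104441050. No comparison of Spp1 was called, with or without the block. Normalized counts were 2564, 2167 and 3698 in H1.0 siRNA cells with TGF-β, against 1533, 1616 and 2954 in H1.0 siRNA cells with vehicle. In scramble cells there were 1959, 2344 and 3502 with TGF-β, against 1429, 2163 and 4085 with vehicle. Replicate 3 was the highest library of every group, at 1.56 to 2.27 times the mean of the other 2. The TGF-β difference was 0.46 in H1.0 siRNA cells (95% interval -0.38 to 1.31, adjusted p = 0.42 by edgeR, and 0.018 with the block) and 0.03 in scramble cells (95% interval -0.82 to 0.87). The summed macrophage markers of replicate 3 were 651.4 CPM in H1.0 siRNA cells with TGF-β (the others 783.5 and 516.9), 1006 CPM with vehicle (1061 and 1009), 826.4 CPM in scramble cells with TGF-β (793.4 and 756.3) and 1080 CPM with vehicle (1162 and 1057). Replicate 3 was thus the highest in 1 group of 4, and the part of macrophages in the Spp1 values was not tested.

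**Figure D2:**
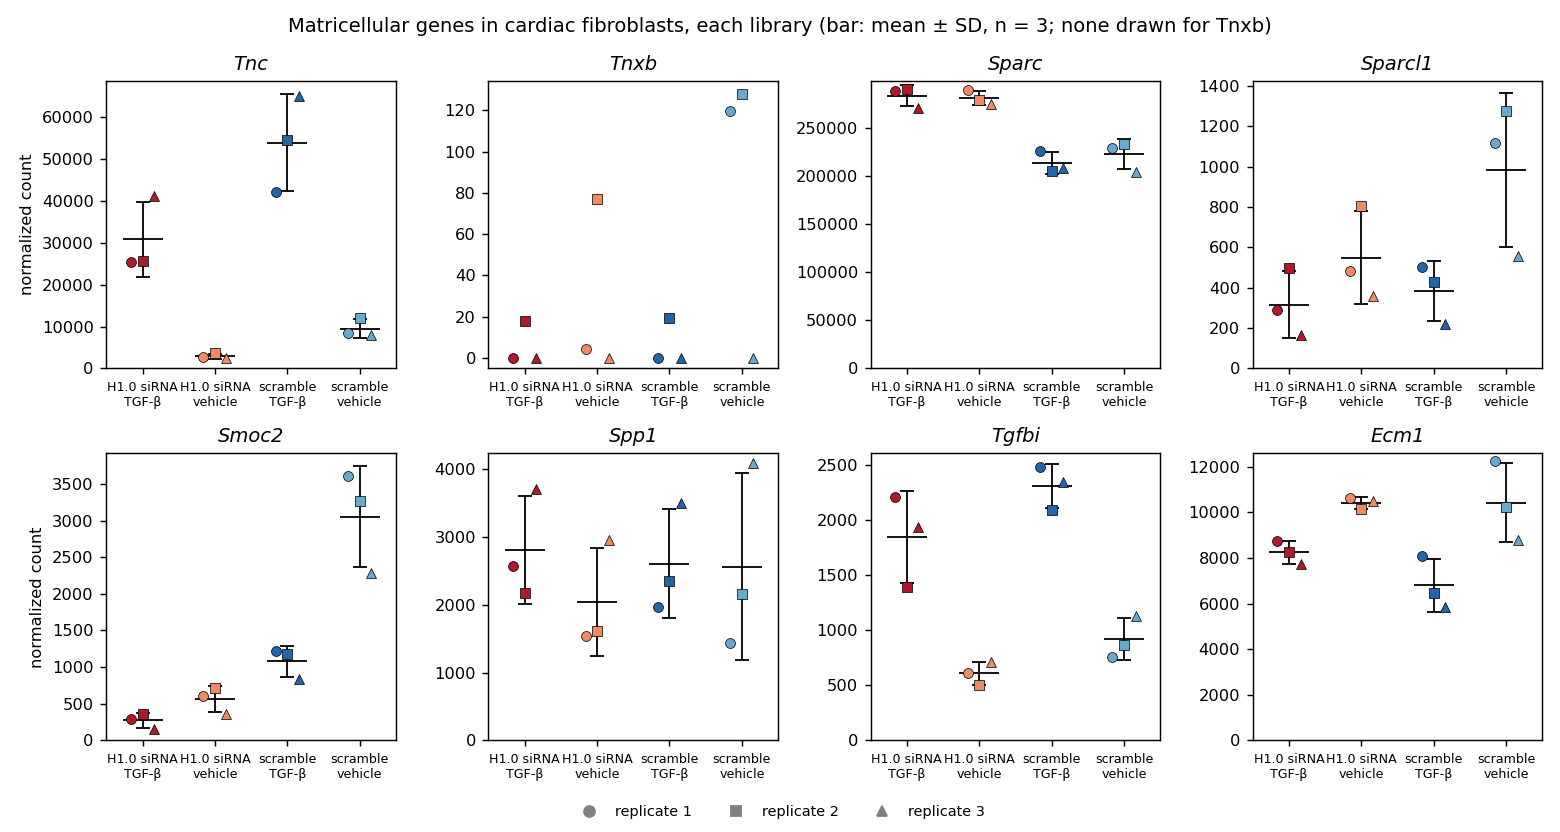
Normalized count of each of the 8 genes in each library, by group, with the replicate number as the point's shape and bars for the mean ± SD of 3 libraries (none for Tnxb, which has libraries at 0). Tnc and Tgfbi are higher with TGF-β, and Smoc2 and Sparc separate the siRNAs. Replicate 3 is lowest in each group for Sparcl1 and Smoc2 and highest for Spp1.

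Of the 8 members, 2 were higher and 0 lower with TGF-β in H1.0 siRNA cells, where 9.14% and 6.6% of all 18028 genes were called higher and lower. In scramble cells 2 were higher and 2 lower, against 10.5% and 7.94% of all genes. With H1.0 siRNA, 1 member was higher and 1 lower under TGF-β (13% and 11.3% of all genes), and 0 were higher and 2 lower under vehicle (13.4% and 11.2%). These counts are of 8 genes, so shares near the background correspond to about 1 gene in each direction.

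With the replicate block the counts were larger, as they were over all genes. Then 2 members were higher and 3 lower with TGF-β in H1.0 siRNA cells (14.2% and 12.6% of all genes), and 2 higher and 3 lower in scramble cells (15.4% and 13%). With H1.0 siRNA, 1 was higher and 2 lower under TGF-β (17.6% and 16%), and 1 higher and 4 lower under vehicle (17.4% and 16.2%). The median log2 fold change of the members under H1.0 siRNA was -0.14 with TGF-β and -0.72 with vehicle, against 0.04 and 0.00 over all genes tested. Under TGF-β it was -0.16 in H1.0 siRNA cells and -0.34 in scramble cells, against -0.01 over all genes in each. All of these medians include Tnxb, whose counts were close to 0. Without Tnxb the middle value under TGF-β was that of Sparc, 0.01 in H1.0 siRNA cells and -0.06 in scramble cells.

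For the interaction, 0 of the 8 members were called in edgeR, where 0.0444% of all genes (8 genes) were called and 2149 genes had an unadjusted p under 0.05, Tnc among them. With the block 118 genes were called for it and in DESeq2 239, again without any of the 8.

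**Figure D3:**
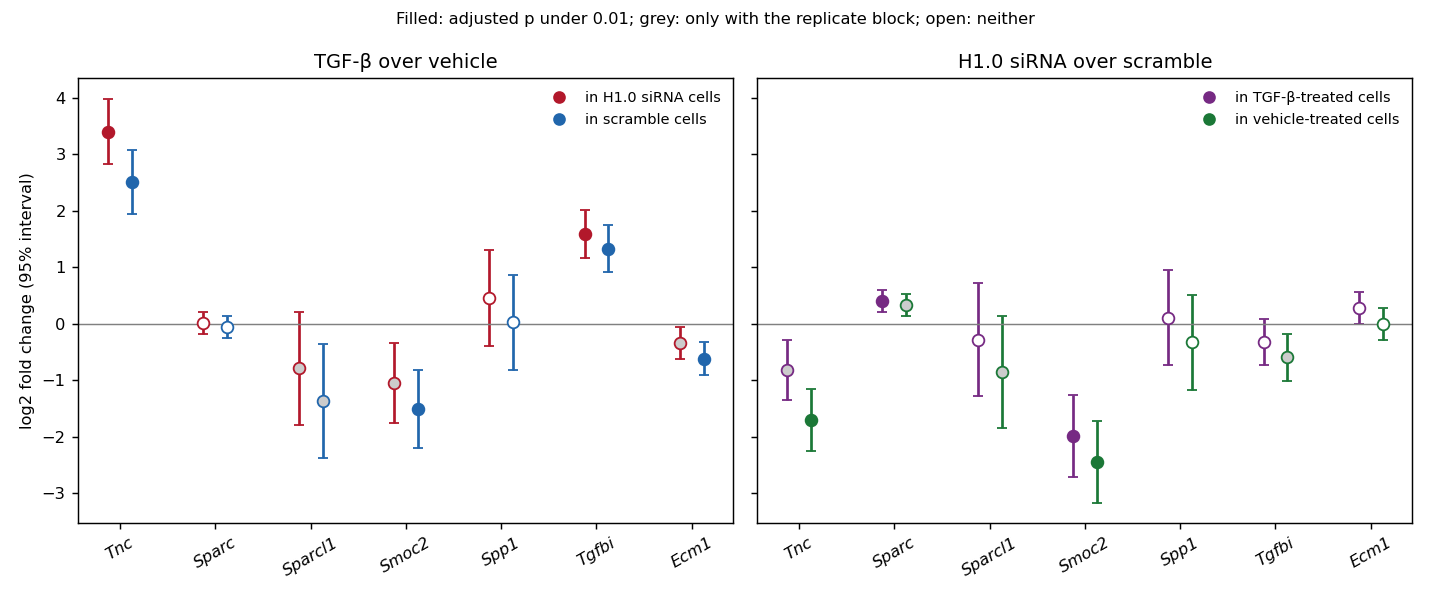
Log2 fold changes with 95% intervals for 7 members (Tnxb left out), for TGF-β over vehicle (left) and H1.0 siRNA over scramble (right). Filled points were called at an adjusted p under 0.01, grey points were called only with the replicate block, and open points in neither fit. Tnc ranges from 3.40 for TGF-β in H1.0 siRNA cells to -1.70 for H1.0 siRNA under vehicle.

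Per transcript length, the genes differed widely in level. In TPM, Sparc averaged 9125 ± 493 with TGF-β and 9665 ± 540 with vehicle in H1.0 siRNA cells, and 7288 ± 309 with TGF-β and 7882 ± 611 with vehicle in scramble cells (SD, n = 3 each). It was above every other member in every library. In scramble cells with vehicle, Ecm1 came next at 626.6 to 774.3 TPM. Spp1 (148.7 ± 78.4 TPM), Tnc (97.5 ± 22.8 TPM) and Smoc2 (86.2 ± 20.4 TPM, SD, n = 3 each) followed with overlapping ranges, then Sparcl1 (15.5 to 36.5 TPM) and Tgfbi (21.8 to 31.9 TPM), which also overlapped. In scramble cells with TGF-β, Tnc at 414.4 to 631.5 TPM overlapped Ecm1 at 410.3 to 551.2 TPM. In H1.0 siRNA cells with vehicle Tnc was at 22.8 to 36.9 TPM, below Spp1 at 88.2 to 160.3 TPM without overlap. Tnxb stayed under 1 TPM, at most 0.935.

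**Figure D4:**
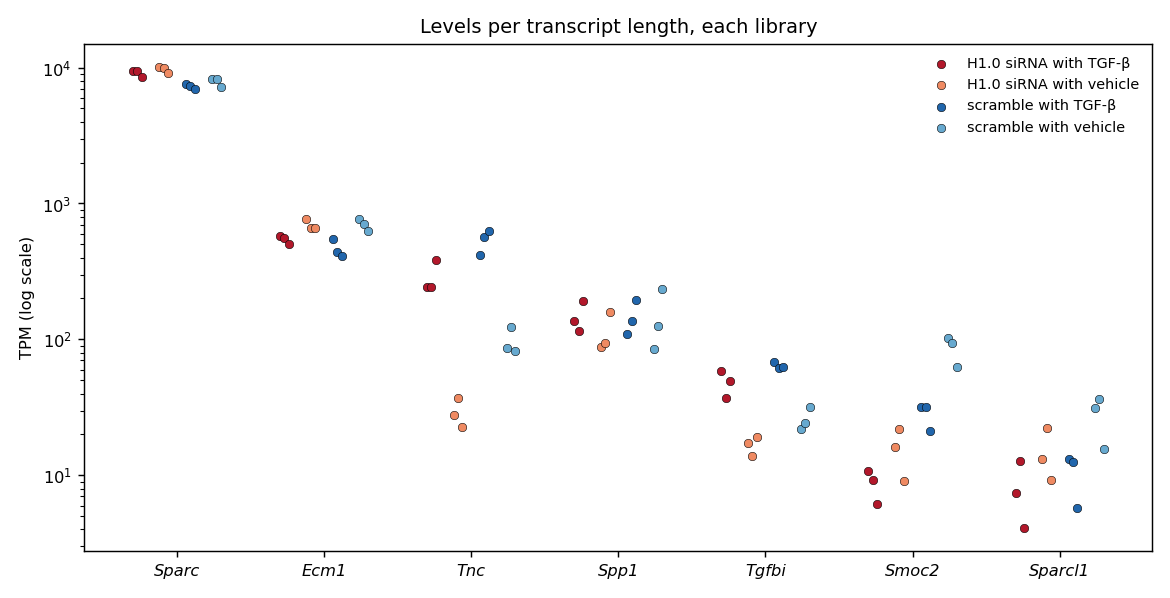
TPM of 7 members in each library on a log axis, ordered by their mean over all libraries, with the 4 groups side by side for each gene (Tnxb left out). Sparc lies between 6987 and 10082 TPM, and Tnc spans the widest range on this axis, from 22.8 to 631.5 TPM.

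The other tenascins and SPARC relatives were scarce except for Fstl1 and Smoc1. Of 7 listed genes 6 were tested, since Spock3 had too few counts. Fstl1, which encodes follistatin-like 1, a secreted SPARC-related glycoprotein, rose with TGF-β by 0.45 on the log2 scale in H1.0 siRNA cells (adjusted p = 0.0055 by edgeR) and by 0.50 in scramble cells (adjusted p = 0.0029). It was also higher with H1.0 siRNA, by 0.57 with TGF-β (adjusted p = 8.2e-04) and 0.62 with vehicle (adjusted p = 4.9e-04). Smoc1, the nearest relative of Smoc2, averaged 1218 normalized counts in H1.0 siRNA cells with TGF-β and 2565 with vehicle. It was lower with TGF-β only in the fit with the block (log2 fold change -1.07 in H1.0 siRNA cells, adjusted p = 4.3e-05, and -0.86 in scramble cells, adjusted p = 3.6e-04), and its siRNA differences were 0.01 with TGF-β and 0.22 with vehicle, not called. Spock1 was called lower with H1.0 siRNA under TGF-β (adjusted p = 0.0080 by edgeR, 0.015 with the block) on a mean of 0 normalized counts in H1.0 siRNA cells, against 4.2 in scramble cells.

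Among the fasciclin domain genes other than Tgfbi, Postn (periostin) rose and Stab1 and Stab2 were not called without the block. Postn rose with TGF-β by 1.89 on the log2 scale in H1.0 siRNA cells (SE 0.18, adjusted p = 5.3e-05) and by 2.22 in scramble cells (SE 0.19, adjusted p = 3.9e-05 by edgeR), and under TGF-β it was lower with H1.0 siRNA by 0.90 (log2 fold change -0.90, adjusted p = 0.0022). Under vehicle its difference was -0.57, called with the block only (adjusted p = 0.0015, against 0.027 without). Of the 4 other genes of the SIBLING family, the bone matrix proteins to which Spp1 belongs, 1 was tested (Dmp1, at most 4.7 normalized counts on average) and it was not called.

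Several receptors of these proteins rose with TGF-β. Of 14 genes, with changes given on the log2 scale, 6 rose and 1 fell in H1.0 siRNA cells, and 4 rose and 1 fell in scramble cells. Over all genes 9.14% were called higher and 6.6% lower in H1.0 siRNA cells, and 10.5% and 7.94% in scramble cells. The fibronectin receptor subunit Itga5 rose by 1.32 in H1.0 siRNA cells (adjusted p = 1.6e-04) and 1.76 in scramble cells (adjusted p = 4.8e-05). Itga9, a subunit that binds tenascin-C and osteopontin, rose by 1.38 in H1.0 siRNA cells (adjusted p = 5.1e-05) and 1.21 in scramble cells (adjusted p = 1.3e-04). Cd44, a receptor for hyaluronan and osteopontin, rose by 1.08 in H1.0 siRNA cells (adjusted p = 2.3e-05) and 0.96 in scramble cells (adjusted p = 6.6e-05, all by edgeR). With the block 7 rose and 3 fell in each background. Over all genes the block called 14.2% higher and 12.6% lower in H1.0 siRNA cells, and 15.4% and 13% in scramble cells. Tlr4, a receptor that tenascin-C can activate, fell by 0.84 in H1.0 siRNA cells (adjusted p = 3.0e-04) and by 0.75 in scramble cells (adjusted p = 5.8e-04).

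With H1.0 siRNA, 1 receptor was higher and 1 lower under TGF-β, and 1 was higher and 4 lower under vehicle. Over all genes 13% were called higher and 11.3% lower under TGF-β, and 13.4% and 11.2% under vehicle, so all of these counts but the 4 were below the share over all genes. The integrin αv gene Itgav was lower under both, with a log2 fold change of -1.03 under TGF-β (adjusted p = 1.6e-06 by edgeR) and -1.29 under vehicle (adjusted p = 4.6e-07). It rose with TGF-β by 0.81 in H1.0 siRNA cells (adjusted p = 2.0e-05) and 0.55 in scramble cells (adjusted p = 1.9e-04). The syndecan gene Sdc4, a heparan sulfate proteoglycan of focal adhesions, was higher with H1.0 siRNA by 0.88 under TGF-β (adjusted p = 7.9e-04) and 1.19 under vehicle (adjusted p = 1.1e-04).

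For scale, the fibrillar matrix genes had smaller log2 fold changes with TGF-β than Tnc. The 6 listed were of collagen types I, III and V or fibronectin. With TGF-β 5 rose and 1 fell in H1.0 siRNA cells (median log2 fold change 0.56), and 2 rose in scramble cells (median 0.27). Over all genes 9.14% were called higher and 6.6% lower in H1.0 siRNA cells, and 10.5% and 7.94% in scramble cells. Col3a1 was the one that fell, by 0.86 on the log2 scale (log2 fold change -0.86, adjusted p = 0.0025 by edgeR). In scramble cells its difference was -0.60, called with the block (adjusted p = 0.0016) but not without it (0.014 by edgeR). With H1.0 siRNA 1 of the 6 was called higher and 1 lower under TGF-β (13% and 11.3% of all genes). Under vehicle 2 were higher and 2 lower (13.4% and 11.2%). Fn1, which encodes fibronectin, was lower with H1.0 siRNA, the same direction as Tnc. Its log2 fold change was -0.72 under TGF-β (adjusted p = 0.0019 by edgeR) and -1.04 under vehicle (adjusted p = 1.8e-04). Col5a1 was higher by 0.64 under TGF-β (adjusted p = 0.0015) and 0.47 under vehicle (adjusted p = 0.0093). Under vehicle Col3a1 was also higher (log2 fold change 0.73, adjusted p = 0.0041) and Col5a2 lower (log2 fold change -0.39, adjusted p = 0.0093).

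Of the 10 fibroblast markers, 2 were called higher and 5 lower with TGF-β in H1.0 siRNA cells, and 1 and 3 in scramble cells. Over all genes these shares were 9.14% and 6.6%, and 10.5% and 7.94%. With H1.0 siRNA 1 was higher and 3 lower under TGF-β (13% and 11.3% of all genes). Under vehicle 2 were higher and 1 lower (13.4% and 11.2%). Levels of markers of other cells are given for the same comparisons. Macrophage markers summed to 516.9 to 783.5 CPM in H1.0 siRNA cells with TGF-β, against 1006 to 1061 CPM with vehicle. In scramble cells they summed to 756.3 to 826.4 CPM with TGF-β, against 1057 to 1162 CPM with vehicle. Of the 15 genes 5 were called lower with TGF-β in H1.0 siRNA cells and 3 in scramble cells. Over all genes 6.6% and 7.94% were called lower there. The 5 cardiomyocyte markers summed to 5.47 to 10.9 CPM in H1.0 siRNA cells and to 63.4 to 96.1 CPM in scramble cells, nearly all of it Tnnt2. With H1.0 siRNA 2 of the 5 were called lower under each treatment. Over all genes 11.3% were called lower with H1.0 siRNA under TGF-β and 11.2% under vehicle. Myh6, Actc1, Myl2 and Ryr2 averaged at most 1.32 CPM in any group. Endothelial markers summed to 52.8 to 75.4 CPM in H1.0 siRNA cells and to 69.6 to 131 CPM in scramble cells. Tek carried most of this gap, with means of 17 CPM in both H1.0 siRNA groups, against 39.2 CPM in scramble cells with TGF-β and 65.9 CPM with vehicle. Of the 8 endothelial genes 1 was called lower with H1.0 siRNA under each treatment, against the same 11.3% and 11.2% of all genes. Their median log2 fold change was 0.29 under TGF-β and -0.06 under vehicle. Schwann cell markers summed to 1.58 to 3.37 CPM overall. Epicardial and mesothelial markers summed to 15.2 to 33.9 CPM in H1.0 siRNA cells and to 11.4 to 18.8 CPM in scramble cells, and 0 genes of these last 2 lists were called by edgeR in any comparison, with or without the block (at most 2 with an unadjusted p under 0.05). The part of any such cells in the values of the 8 genes was not tested.

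The genes whose levels followed Tnc most closely over the 12 libraries, among 11091 with enough reads, were Cdc42bpa (Pearson r = 0.992), Shroom1 (0.987) and Nox4 (0.986), on log2 CPM. The closest to each other member were Cpz for Tnxb (0.928), B4galt3 for Sparc (0.987), C4b for Sparcl1 (0.983), Cdc42bpg for Smoc2 (0.993), mt-Nd3 for Spp1 (0.919), Tpm3 for Tgfbi (0.983) and Prkd2 for Ecm1 (0.979). These correlations describe 12 libraries that share 2 treatments and 3 replicate numbers.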

How the data were processed

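The libraries were depleted of ribosomal RNA and read from both ends. The authors quantified transcripts with Salmon on mm10, compared groups with DESeq2, and deposited, for each of 12 libraries, the estimated counts of every transcript (fractions occur), its TPM value and its effective length. Chromatin data of the study were left aside.

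Transcripts were matched by identifier to GENCODE M21 on GRCm38 (115973 of 117135), 115410 of them with the same version. The paper names an Ensembl build for its Salmon index. Exon structures and counts of annotated Tnc transcripts here come from GENCODE M21, which may differ from that index. Normalized counts are scaled to 26854469 counts per library. Estimated counts were summed per gene and rounded, and TPM was summed per gene for levels. The 18028 genes with at least 10 counts over all libraries were tested in edgeR 4.0.16 (R 4.3.3, TMM, quasi-likelihood F test, 4 groups in 1 fit, no covariates, Benjamini-Hochberg, calls under 0.01), after a trial on simulated counts. Standard errors are the log2 fold change over the square root of F. Alternatives were the replicate number as a block, RLE scaling, DESeq2 1.42.0, limma-voom 3.58.1, other filters, a transcript length offset, thinned counts, fits of only the libraries compared, a threshold of 0.05, and each library left out. The block with the length offset was chosen after seeing the data.

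Deviations from group means correlated at 0.113 to 0.612 between same-numbered libraries of different groups (18 pairs) and at -0.569 to 0.29 between others (36 pairs). Such deviations sum to 0 within a group, so the 2 ranges are not independent and higher values for same-numbered pairs go with lower values for the others. Pairs of replicate 1 were the lowest of the same-numbered ones, at 0.113 to 0.386. Replicate 1 of scramble cells with vehicle correlated at 0.113 with replicate 1 of H1.0 siRNA cells with vehicle, and at 0.197 with replicate 2 of that group. The labels give the numbers but not what they share, so the pairing comes from these data. No 2 replicates agreed within sampling noise (chi-square over its degrees of freedom 9.41 to 69.3). The labels call the replicates biological and do not say which animals they came from.

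Transcript shares of Tnc were computed for transcripts with a mean share of at least 1%, and the difference of means was tested by exact permutation, two-sided, at 0.05. The shares carry Salmon's assignment error, for which no estimate was used. The genes named outside the 8 are up to 3 called members of each list, by adjusted p, and the genes most correlated with a member. Other genes named beside a count, or for scale, were chosen after their values were seen. The 8 members and all lists were chosen with earlier results of these data known.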

Additional observations from a re-analysis of the deposited data

How the results depend on the processing

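Counts of called members changed with the fit. With the replicate block they were 5 for TGF-β in H1.0 siRNA cells and 5 for H1.0 siRNA under vehicle, against 2 each. Over all genes the block called 4825 and 6054. With the block and the transcript length offset, a pair of choices added after seeing the data, they were 4 and 5. That fit called 3585 and 4577 of all genes. For H1.0 siRNA under vehicle, DESeq2 and the threshold of 0.05 gave 4 each, with 5376 and 6585 of all genes called. The main fit called 2421 of all genes higher and 2024 lower there. Fitting only the libraries compared gave 1 in place of 2 for H1.0 siRNA under TGF-β, with 3319 of all genes called. The main fit called 2343 of all genes higher and 2038 lower in that comparison. Leaving out 1 library gave 2 to 4 members for TGF-β in scramble cells and 1 to 3 for H1.0 siRNA under TGF-β, and the count of 2 in each of the other 2 comparisons, and of 0 for the interaction, did not move. Among the 8 genes, the block changed no other call than those given with each gene. Of the 14 receptors it called 1 higher and 3 lower with H1.0 siRNA under TGF-β and 1 higher and 6 lower under vehicle. Of the 6 fibrillar genes it called 3 higher and 1 lower under TGF-β. Over all genes it called 17.6% higher and 16% lower under TGF-β, and 17.4% and 16.2% under vehicle. The cause of these differences was not tested.

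Signs turned only for differences that were not called. For TGF-β on Sparc in H1.0 siRNA cells the length offset gave -0.004, with or without the block. For H1.0 siRNA on Ecm1 under vehicle the block gave 0.013, limma-voom 0.012, no filter 0.002, the offset 0.014 and both together 0.015. With 1 library left out, log2 fold changes for TGF-β spanned -0.267 to 0.536 (Spp1, scramble), -0.005 to 0.044 (Sparc, H1.0 siRNA) and -7.662 to 1.594 (Tnxb, H1.0 siRNA). For H1.0 siRNA under TGF-β they spanned -0.139 to 0.385 (Spp1), -0.759 to 0.031 (Sparcl1) and -5.56 to 5.626 (Tnxb), and under vehicle -0.111 to 0.125 (Ecm1) and -0.707 to 0.183 (Spp1). For the interaction they spanned -0.073 to 0.822 (Spp1) and -3.895 to 7.287 (Tnxb). The Tnc-203 share differences stayed between -13.5 and -10.6 percentage points for TGF-β and between 11.2 and 14.0 for H1.0 siRNA, with adjusted p up to 0.02. Without any 1 scramble vehicle library the Tnc-201 share test for TGF-β lost its call (adjusted p = 0.096, against 0.024 with all libraries). Other scalings moved the median gene by at most 0.036 on the log2 scale.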
